A study of Rattus norvegicus with 91 samples.

Results

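Serotonin neurons and the serotonin receptors of their target cells were followed through 9 genes, Tph2, Slc6a4, Fev, Htr1a, Htr1b, Htr2a, Htr2c, Htr3a and Htr7, in the ventral tegmental area of rat lines bred for high or low alcohol consumption. A probe set was taken when the platform annotation gave it 1 gene symbol and that symbol was one of the 9. This gave 14 probe sets of 8 genes, out of 20826 probe sets with a single symbol. Tph2, which encodes the enzyme that makes serotonin in neurons, has no probe set under its symbol alone and was not analysed here.

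The data were 91 arrays, 1 per animal, from 10 lines in 5 pairs. HAD1 (8 arrays), HAD2 (8), P (9), AA (10) and sP (8) are lines selectively bred for high consumption, and LAD1 (10), LAD2 (9), NP (10), ANA (10) and sNP (9) are their partners bred for low consumption. The labels give no treatment, sex, age or generation, so the animals differ by line alone as far as the labels go, and a line difference holds both the outcome of selection and any chance difference between 2 separately bred lines. Values were log2 signals, and levels were compared only within a pair.

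Serotonin is made from tryptophan by Tph2, packed into vesicles by Slc18a2, taken back up by the transporter Slc6a4 and broken down mainly by monoamine oxidases. The cell bodies lie in the raphe nuclei of the brainstem, next to and partly behind the ventral tegmental area, and their axons reach the dopamine neurons there. Fev is the ETS-family transcription factor that switches on and maintains the serotonin programme. The receptors are read out mostly in other cells: Htr1a and Htr1b couple to inhibitory G proteins, Htr2a and Htr2c to Gq, Htr7 to Gs, and Htr3a is a subunit of a ligand-gated cation channel. Signals of bulk tissue cannot tell fewer cells of a type from less RNA per cell.

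The tissue carried its defining markers. Th, which encodes the enzyme that sets the rate of dopamine production, had line means between 12.94 and 14.98 on the log2 scale. Its SD was 1.92 in the arrays labelled P and 2.107 in those labelled NP, against 0.11 to 0.28 in the other lines. The lowest arrays were P 10 at 9.12 and NP 8 at 8.23, and P 8, NP 3, NP 5 and NP 7 lay between 11.4 and 11.9. The distributions of the values fell into 5 sets that mostly followed the labelled pairs. The arrays labelled AA 1, AA 19, ANA 20, sP 8 and sNP 2 lay in a set made mostly of another pair, and borders between sets were not sharp. Groups outside the HAD and LAD lines are therefore written as arrays labelled with a line. The 3'-minus-5' signal of the array's Gapdh probes, which rises as RNA is degraded or copied short, averaged 3.42 in HAD2 and 3.58 in LAD2, and the lines of the other pairs were closer to each other.

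No probe set of the serotonin genes passed the test in any pair. The test was limma's moderated test on the line means of all 91 arrays, adjusted by the Benjamini-Hochberg method over the 20826 probe sets, and a probe set was called at an adjusted p under 0.05. Each probe set had 1 spread, pooled over the 10 lines, although SDs differed between lines. Standard errors and p-values of a pair can therefore be too small or too large for its own animals. Between HAD1 and LAD1 0 of 14 were called, against 2.91% of all probe sets tested. Between HAD2 and LAD2 it was 0 of 14, against 3.73% of all. Between the arrays labelled AA and ANA it was 0 of 14, against 2.37% of all. Between those labelled P and NP, and between those labelled sP and sNP, it was 0 of 14, against 0% of all in both pairs. With shares this low, a count of 0 in 14 is near the background. The average over the 5 pairs called 0 of 14 (1.06% of all), and the F test for a difference that depends on the pair called 0 of 14 (4.67% of all).

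At an unadjusted p under 0.05, 0 of 14 passed in HAD1/LAD1 (10.6% of all probe sets) and 0 of 14 in HAD2/LAD2 (11.4%). In P/NP 2 of 14 passed (5.68%), in AA/ANA 1 (12.3%) and in sP/sNP 1 (1.54%). In the average 2 of 14 passed (9.04%), and in the test between pairs 1 (13.2%). The median log2 difference of the 14 probe sets ran from -0.035 in P/NP to 0.047 in AA/ANA, beside -0.012 and -0.003 for all probe sets in the same pairs. In all 70 comparisons of a probe set within a pair, the ranges of the 2 lines overlapped.

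**Figure D1:**
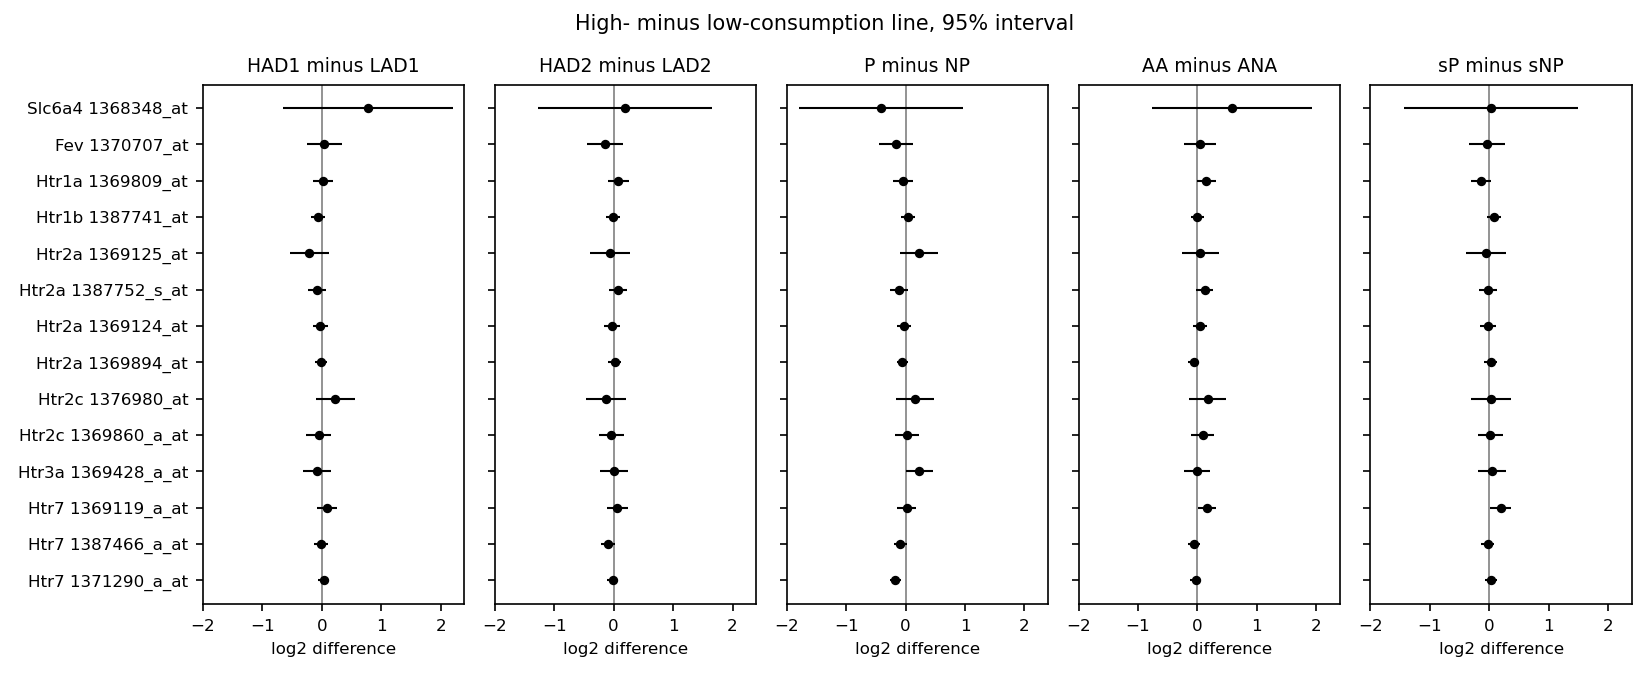
Log2 difference between the line bred for high and the line bred for low consumption, for the 14 probe sets (rows) in the 5 pairs (panels); points are the fitted differences and bars their 95% intervals from limma. The Slc6a4 intervals are by far the widest of the 14, from -0.65 to 2.21 in HAD1 minus LAD1, and all but 4 of the 70 intervals include 0.

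Slc6a4, the serotonin transporter, is placed by serotonin neurons on their own membranes and axons, and is a marker of them. On a log2 scale its signal was 8.30 at the lowest, 8.96 at the median and 10.3 at the highest in HAD1, against 5.82, 7.92 and 11.2 in LAD1. In HAD2 it was 6.61, 7.68 and 11.3 (lowest, median, highest), against 6.33, 7.95 and 9.56 in LAD2. The 8 HAD1 arrays thus sat inside the range of LAD1 and covered less of it, and 2 HAD2 arrays lay above all LAD2 arrays.

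In arrays labelled P it was 5.40, 6.66 and 9.57 (lowest, median, highest), against 5.79, 6.65 and 10.7 in those labelled NP. In arrays labelled AA it was 5.62, 7.73 and 10.7, against 5.35, 7.25 and 10.03 in those labelled ANA. In arrays labelled sP it was 5.80, 7.45 and 9.42, against 6.01, 7.21 and 10.3 in those labelled sNP. In each of these pairs both lines held animals at both ends of the scale.

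The fitted Slc6a4 difference was 0.78 ± 0.72 (log2, standard error) in HAD1/LAD1, with line means of 9.06 ± 0.66 in HAD1 and 8.28 ± 1.66 in LAD1 (SD, 8 and 10 arrays). It was 0.19 ± 0.74 in HAD2/LAD2, -0.41 ± 0.70 in P/NP, 0.59 ± 0.68 in AA/ANA and 0.03 ± 0.74 in sP/sNP. The average of the pairs was 0.23 ± 0.32, with a 95% interval from -0.40 to 0.87, so a rise of 0.87 lies inside it. Without the 3 arrays of AA and ANA that lay apart, the AA/ANA difference was 0.13. Without the sP and sNP arrays that lay apart as well, that of sP/sNP was -0.21. With weights on the arrays the P/NP difference was 0.52, the opposite direction. Leaving out 1 array at a time moved the difference between 0.51 and 1.10 in HAD1/LAD1, between -0.27 (without HAD2 9) and 0.40 in HAD2/LAD2, between -0.74 (without P 4) and -0.04 (without NP 10) in P/NP, between 0.29 and 0.87 in AA/ANA, and between -0.23 and 0.36 in sP/sNP. None of these was called.

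What set Slc6a4 apart was its spread among animals of one line. Its pooled within-line SD was 1.55 on the log2 scale, and only 3 of the other single-symbol probe sets had a larger one, beside a median of 0.153 and a 99th percentile of 0.601. The highest array of a line exceeded its lowest 41.3-fold in LAD1, 34.2-fold in those labelled AA, 31-fold in those labelled NP and 4.03-fold in HAD1, the smallest of the 10 lines. All 8 HAD1 arrays reached 7.02, the 40th percentile of all values, as did 8 of 10 LAD1, 5 of 8 HAD2, 6 of 9 LAD2 and between 4 and 5 arrays of each other line. The standard error of its AA/ANA difference was 0.68, beside a median of 0.0684 over all probe sets.

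**Figure D2:**
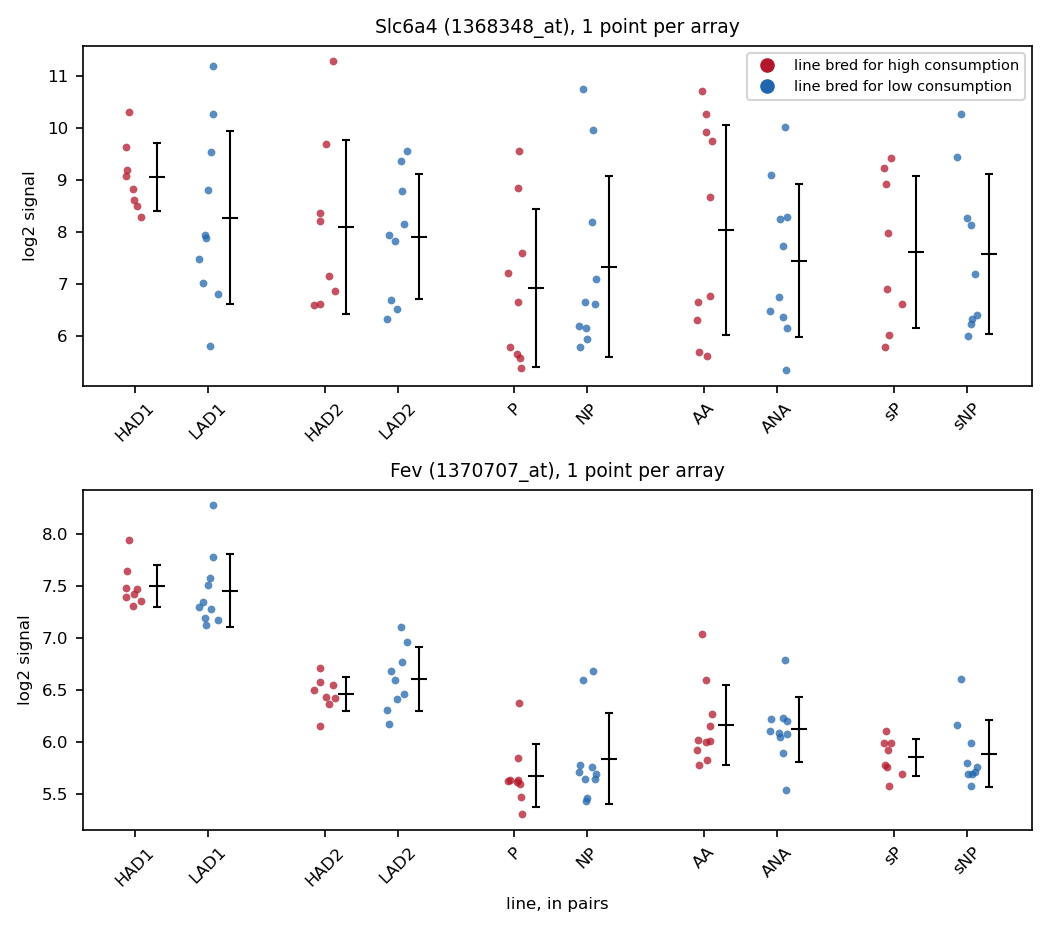
Log2 signal of Slc6a4 (upper panel) and Fev (lower panel) on each of the 91 arrays, with each pair's high-consumption line left of its low-consumption line; black marks give the mean and SD of the line. Slc6a4 runs from 5.35 to 11.3 over all arrays, while the line means of a pair stay within 0.78 of each other.

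Fev, the transcription factor of the serotonin programme, varied less. It averaged 7.50 ± 0.21 in HAD1 and 7.46 ± 0.35 in LAD1 (SD, 8 and 10 arrays), and 6.46 ± 0.16 in HAD2 and 6.61 ± 0.31 in LAD2 (8 and 9 arrays). The arrays labelled P averaged 5.68 ± 0.30 and those labelled NP 5.84 ± 0.44, those labelled AA 6.16 ± 0.39 and those labelled ANA 6.12 ± 0.31, and those labelled sP 5.85 ± 0.18 and those labelled sNP 5.89 ± 0.32. The largest difference was -0.16 ± 0.14 in P/NP (adjusted p 0.969, limma), and with weights on the arrays it was 0.09, the opposite direction. The difference was positive in 2 pairs and negative in 3, and leaving out a single array could turn its sign in HAD1/LAD1, AA/ANA and sP/sNP. Except in the HAD1/LAD1 pair the line means lay below the 40th percentile of all values, where small differences are harder to see.

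The promoter of Fev is shown because Fev and Slc6a4 were correlated from array to array, as described next, and RefSeq's promoter table (assembly GRCr8, 250 bases before to 50 after the start site) holds Fev but not Slc6a4. It lies at chr9:83891669-83891968 on the minus strand. Capitals mark a GATA-type motif, AGATAA, at -131 and an ETS-type motif, CGGAAA, at -73 from the start site.
Fev promoter: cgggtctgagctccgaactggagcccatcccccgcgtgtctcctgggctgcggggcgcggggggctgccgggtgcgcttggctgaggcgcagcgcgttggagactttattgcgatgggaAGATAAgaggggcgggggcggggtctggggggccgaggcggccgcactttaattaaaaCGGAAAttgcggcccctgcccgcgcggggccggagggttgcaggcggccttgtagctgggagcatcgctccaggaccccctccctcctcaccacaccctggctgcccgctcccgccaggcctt
On either strand, AGATAA stands in 11.6% and CGGAAA in 9.46% of the 33469 promoters of the table. Of the 5 member genes in the table, Tph2 holds AGATAA at -144 and Htr2c holds CGGAAA at -11 on the minus strand. A match of letters does not show that a factor binds.

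Slc6a4 and Fev were positively correlated across the animals of every pair, and the relation passed its test in 3 of 5 pairs. After each line's mean was removed, Pearson's r between them was 0.88 across the 17 arrays labelled sP and sNP (Spearman's rho 0.833), 0.829 across the 19 labelled P and NP (rho 0.577) and 0.761 across the 20 labelled AA and ANA (rho 0.758). These 3 passed a permutation test within lines, with adjusted p-values of 7e-04, 0.007 and 0.00175. In HAD1/LAD1 r was 0.656 over 18 arrays (rho 0.443, permutation adjusted p 0.0603), and in HAD2/LAD2 0.541 over 17 arrays (rho 0.63, permutation adjusted p 0.0857). Adjustment was over 70 relations, Slc6a4 against Th and the other 13 member probe sets in 5 pairs, of which 10 passed. By the adjusted p of rho, sP/sNP (0.007) and AA/ANA (0.0123) passed and P/NP (0.074) did not.

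In most pairs r was lower without the animals of most extreme Slc6a4. Leaving them out narrows the range of Slc6a4 and the number of arrays. A lower r and a lost call therefore cannot show by themselves that a few animals made the relation. Without the 2 arrays whose Slc6a4 lay farthest from the median, r was 0.853 in sP/sNP, 0.682 in P/NP, 0.669 in AA/ANA, 0.555 in HAD2/LAD2 and 0.169 in HAD1/LAD1, and only sP/sNP still passed (permutation adjusted p 0.0133). The fall was largest in HAD1/LAD1, where r over all 18 arrays was 0.656. Without the arrays that lay apart from their labels, r was 0.885 over 17 AA and ANA arrays and 0.876 over 15 sP and sNP arrays. Without P 10 and NP 8, the arrays of lowest Th, r in P/NP was 0.845. Points of one plot share array, RNA yield and the tissue taken, and the part of each in these relations was not tested.

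**Figure D3:**
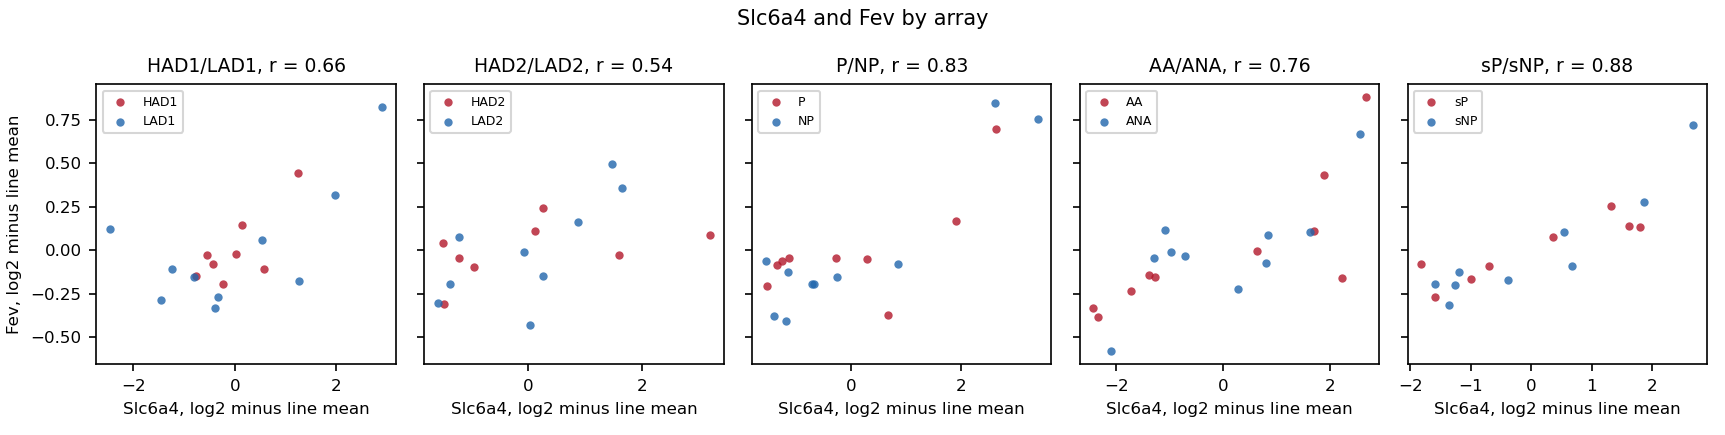
Fev against Slc6a4 on each array, both as log2 signal minus the mean of the line, with 1 panel per pair; colours give the 2 lines of the pair. The points run upward in every panel, with r between 0.54 in HAD2/LAD2 and 0.88 in sP/sNP. In HAD1/LAD1 r was 0.656 over all arrays and 0.169 without the 2 arrays farthest from the median of Slc6a4.

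Th had both signs of correlation with Slc6a4. Its r was -0.652 in HAD1/LAD1, 0.103 in HAD2/LAD2, 0.473 in P/NP, -0.418 in AA/ANA and -0.196 in sP/sNP, and 0 of the 5 passed (permutation test, adjusted p of at least 0.0611). In P/NP the arrays with the lowest Th, P 10 and NP 8, were also the lowest in Slc6a4 of their lines, at 5.40 and 5.79.

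Many other genes followed Slc6a4 across arrays, given here as a description with no test. Among 10256 genes above the 40th percentile, the gene most like Slc6a4 by mean r over the 5 pairs was Gchfr, the feedback regulator of the enzyme that makes the cofactor of tryptophan hydroxylase, with a mean r of 0.85 (0.806 to 0.897). Next came Pnoc, the nociceptin precursor (0.817), Gal, the galanin precursor (0.81), Tal1, a transcription factor of midbrain GABA neurons (0.787), Tox (0.778), Slc30a3, the vesicular zinc transporter (0.75), Sorcs1, a sorting receptor (0.739), and Ncald, a neuronal calcium sensor (0.734). Across the genes compared the median of this mean r was 0.024 and the 99th percentile 0.599. Of the transcription factors that specify serotonin neurons, Gata3 had 0.722, Nkx2-2 0.587, Gata2 0.507, En2 0.113 and Pou3f2 0.0789, whereas Foxa2, also a factor of dopamine neurons, had -0.543. The 10 genes of synthesis, storage and breakdown with a probe set ran from -0.062 for Slc18a2 to the 0.85 of Gchfr. Slc22a3, a low-affinity monoamine transporter, had 0.712 and Maob, the monoamine oxidase of serotonin neurons and astrocytes, 0.534, while Maoa had 0.289 and the other 5 lay between -0.013 (Ddc) and 0.242 (Aldh2). Slc22a3 and Pou3f2 were not among the 10256 genes above the 40th percentile, so their r comes from dim signals.

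Some markers of other cells were correlated with Slc6a4 too, again as a description. The 8 GABA neuron markers had mean r values from -0.35 for Pvalb, parvalbumin, to 0.691 for Gad1, a GABA-synthesising enzyme gene, with 0.672 for Sst, somatostatin, 0.41 for the vesicular transporter gene Slc32a1 and 0.172 for Gad2. The 4 glutamate neuron markers ran from -0.577 for the vesicular transporter gene Slc17a6 to 0.485 for Camk2a, with -0.134 for Slc17a7. The 5 oligodendrocyte markers ran from 0.327 (Mobp) to 0.524 (Cnp), and the 5 microglial markers from 0.302 (Itgam) to 0.574 (P2ry12). Whether these values follow which part of the midbrain each sample held was not tested. None of the 14 genes named as most like Slc6a4 or Htr2c was called in any pair or in the average (lowest adjusted p 0.308, limma).

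Among the receptors, Htr1a, the autoreceptor that quiets raphe neurons, and Htr1b, the autoreceptor of their terminals, gave dim signals. Every line mean of both lay below the 40th percentile of all values. Htr1a ran from 4.90 to 6.06 over all arrays, and its largest difference was 0.15 ± 0.08 in AA/ANA (5.43 ± 0.26 in those labelled AA, 5.28 ± 0.13 in those labelled ANA, SD, adjusted p 0.46, limma). Without the AA and ANA arrays that lay apart it was 0.08. In sP/sNP Htr1a differed by -0.14 ± 0.09, and the test for a difference that depends on the pair gave an adjusted p of 0.633. Htr1b differed by at most 0.07 in either direction in any pair, with an interval from -0.11 to 0.11 in AA/ANA.

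Htr2a, the excitatory receptor bound by classic hallucinogens, had 4 probe sets, of which 1 (1369125_at) reached the 40th percentile in a line. By that probe set the arrays labelled P had 6.60 at the lowest, 7.46 at the median and 7.75 at the highest, against 5.71, 7.38 and 7.67 in those labelled NP, a difference of 0.23 ± 0.16 (adjusted p 0.936, limma). The lines overlapped over most of their range, and 2 arrays labelled NP lay below all of those labelled P. Leaving out 1 array at a time moved this difference between 0.08 (without NP 10) and 0.32, with weights on the arrays it was 0.05, and without P 10 and NP 8 it was 0.38. In HAD1/LAD1 the difference was -0.21 ± 0.16, and the pairs with positive and negative differences numbered 2 and 3. That standard error comes from the spread pooled over all lines. The SD was 0.13 in HAD1 and 0.20 in LAD1, against 0.67 in the arrays labelled NP. The other 3 probe sets of Htr2a differed by at most 0.12 in any pair.

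Htr2a was negatively correlated with Slc6a4 across animals, past the test in 3 of 5 pairs. With 1369125_at, r was -0.772 in HAD1/LAD1, -0.69 in P/NP and -0.683 in sP/sNP (permutation adjusted p-values of 0.0119, 0.0313 and 0.0313), and -0.34 in AA/ANA and -0.163 in HAD2/LAD2, where it did not pass. The sign was negative in 5 of 5 pairs, and 0 of the 5 passed without the 2 arrays farthest from the median of Slc6a4. Only the arrays labelled P and NP averaged above the 40th percentile of all values, 7.02, at this probe set (7.31 and 7.08). The relations in HAD1/LAD1 and sP/sNP rest on dim signals. The probe set averaged 4.85 in HAD1 and 5.06 in LAD1, and 6.27 in arrays labelled sP and 6.32 in those labelled sNP. Spearman's rho was -0.589, -0.498 and -0.703 in the pairs that passed, and its adjusted p passed in sP/sNP alone (0.0447). The other 3 probe sets of Htr2a had r between -0.444 and 0.392 and none passed, so the probe sets of this gene disagreed.

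Htr2c, a receptor known in this region on GABA neurons, where it restrains dopamine release, had 2 probe sets, of which 1376980_at lay above the 40th percentile in every line. Its signal was 13.2 at the lowest, 13.4 at the median and 13.7 at the highest in HAD1, against 12.8, 13.1 and 13.8 in LAD1. In HAD2 it was 12.7, 13.05 and 13.4 (lowest, median, highest), against 12.97, 13.2 and 13.4 in LAD2. The HAD1 median was above and the HAD2 median below that of its partner, and the ranges overlapped in both pairs. In arrays labelled P it was 11.9, 12.3 and 12.5, against 11.4, 11.8 and 13.1 in those labelled NP. In arrays labelled AA it was 12.2, 12.6 and 13.1, against 11.9, 12.4 and 12.98 in those labelled ANA. In arrays labelled sP it was 12.02, 12.6 and 13.1, against 12.1, 12.5 and 13.02 in those labelled sNP.

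The differences of Htr2c were 0.23 ± 0.16 in HAD1/LAD1, -0.13 ± 0.17 in HAD2/LAD2, 0.16 ± 0.16 in P/NP, 0.17 ± 0.16 in AA/ANA and 0.03 ± 0.17 in sP/sNP (log2, standard error). The average was 0.09 ± 0.07, with a 95% interval from -0.05 to 0.24 and an adjusted p of 0.806 (limma), and the difference was positive in 4 of 5 pairs. That count rested in part on sP/sNP, where leaving out 1 array at a time gave -0.04 to 0.11. In P/NP it ran from 0.08 (without NP 8) to 0.28 in the same way, and was 0.07 without P 10 and NP 8 and 0.47 with weights on the arrays. With those weights AA/ANA was 0.07. The arrays labelled NP had an SD of 0.67, against 0.23 in those labelled P. The second probe set (1369860_a_at) differed by at most 0.09 in any pair, and every line mean of it lay below the 40th percentile.

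**Figure D4:**
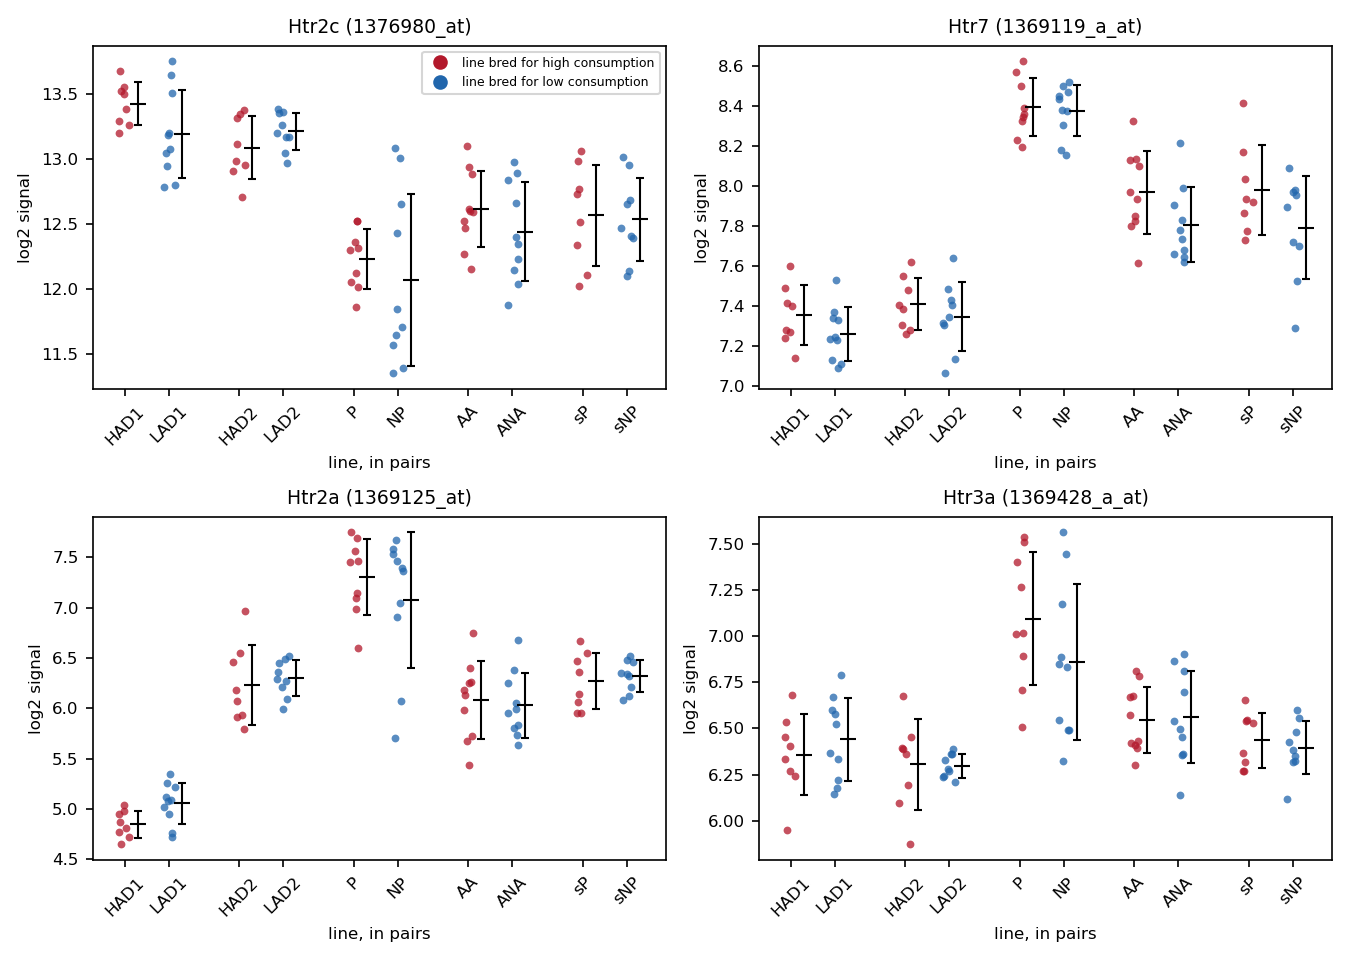
Log2 signal of the brightest probe set of Htr2c, Htr7, Htr2a and Htr3a on each array, with each pair's high-consumption line left of its low-consumption line; black marks give the mean and SD of the line. The 2 lines of a pair overlap in every panel, and the 2 lowest Htr2a points of the P/NP pair are arrays labelled NP.

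Htr2c was positively correlated with Slc6a4, past the test in 3 of 5 pairs. The r of 1376980_at was 0.734 in sP/sNP, 0.723 in HAD1/LAD1 and 0.667 in AA/ANA (permutation adjusted p-values of 0.0198, 0.0313 and 0.0158), 0.565 in P/NP and 0.376 in HAD2/LAD2, where it did not pass. Spearman's rho was 0.674, 0.713 and 0.627 in the pairs that passed, with adjusted p-values of 0.0489, 0.0447 and 0.0447. Without the 2 arrays farthest from the median of Slc6a4, 0 of the 5 passed, with r from 0.181 to 0.77. The second probe set passed in sP/sNP alone (r 0.665, permutation adjusted p 0.0313).

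The genes most like Htr2c were Gria4, an AMPA receptor subunit (mean r 0.777), Sorcs1 (0.766), the guidance cue genes Sema5a (0.763) and Sema3e (0.736), Nxph1, a ligand of neurexins (0.759), Sstr1, a somatostatin receptor (0.75), Tox (0.735) and Ralyl, an RNA-binding protein (0.729). Tox and Sorcs1 were also among the 8 most like Slc6a4. The choroid plexus, which lies in the ventricles, also carries Htr2c at a high level. Of the 8 of 10 choroid plexus markers with a probe set, Prlr had a mean r of 0.554 with Htr2c, the defining marker Ttr -0.066 and Otx2 -0.373. Folr1, Aqp1 and Kcne2 had -0.195, -0.208 and -0.184, and Kl and Calml4 had -0.114 and -0.078. Folr1, Aqp1, Kcne2, Kl and Calml4 were not among the genes at or above the 40th percentile, so their r comes from dim signals. The mean signal of the 8 ran from 6.12 to 7.13 over all arrays, and line means differed within a pair by at most 0.15 (6.37 in those labelled P, 6.52 in those labelled NP). Ttr alone varied more, from 6.04 to 10.47 in arrays labelled AA and from 6.08 to 9.11 in those labelled NP. It averaged 6.28 in arrays labelled P and 6.86 in those labelled NP, and 7.11 in AA and 6.73 in ANA. The mean of the 8 therefore does not show that samples held equal amounts of choroid plexus.

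**Figure D5:**
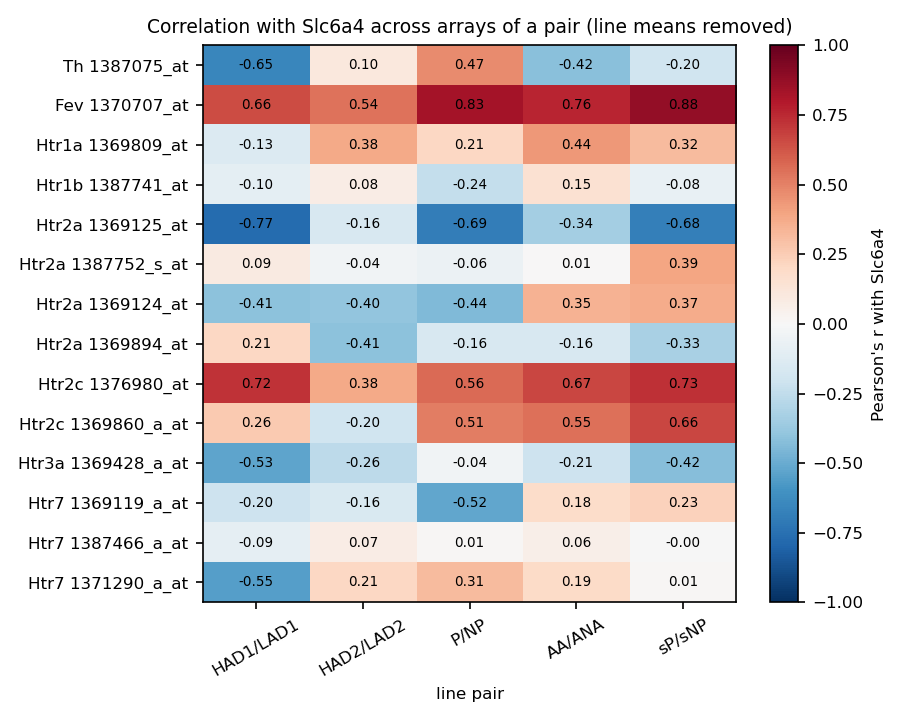
Pearson's r with Slc6a4 across the arrays of each pair (columns) for Th and the other 13 member probe sets (rows), on signals minus the line mean; red is positive and blue negative. Fev and Htr2c 1376980_at are positive and Htr2a 1369125_at negative in all 5 pairs, while the 3 probe sets of Htr7 have no common sign.

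Htr3a, a subunit of the only serotonin receptor that is an ion channel, differed by 0.23 ± 0.11 in P/NP (unadjusted p 0.0409, adjusted p 0.87, limma). The arrays labelled P had 6.51 at the lowest, 7.02 at the median and 7.54 at the highest, against 6.32, 6.84 and 7.56 in those labelled NP. The highest arrays of both groups were alike and the lowest belonged to NP. Without P 10 and NP 8, the arrays of lowest Th, the difference was 0.14. In the other 4 pairs Htr3a differed by at most 0.08 in either direction. Its r with Slc6a4 was negative in 5 of 5 pairs, from -0.527 to -0.037, and none passed.

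Htr7, a receptor that raises cyclic AMP, had 3 probe sets. The brightest (1369119_a_at) was higher in the high-consumption line in 5 of 5 pairs without passing the adjusted threshold in any. In arrays labelled sP it was 7.73 at the lowest, 7.93 at the median and 8.41 at the highest, against 7.29, 7.89 and 8.09 in those labelled sNP, a difference of 0.19 ± 0.09 (unadjusted p 0.0303, adjusted p 0.9998). In arrays labelled AA it was 7.61, 7.95 and 8.32, against 7.62, 7.76 and 8.21 in those labelled ANA, a difference of 0.16 ± 0.08 (unadjusted p 0.0433, adjusted p 0.381). The groups shared most of their range in both pairs. The count of 5 of 5 rested in part on P/NP, where the difference was 0.02. Leaving out 1 array at a time moved that difference between -0.01 and 0.04, and with weights on the arrays it was -0.04.

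In HAD1/LAD1 this probe set averaged 7.35 ± 0.15 in HAD1 and 7.26 ± 0.14 in LAD1 (SD), in HAD2/LAD2 7.41 ± 0.13 in HAD2 and 7.34 ± 0.17 in LAD2, and in P/NP 8.39 ± 0.15 in those labelled P and 8.37 ± 0.13 in those labelled NP. The average difference was 0.11 ± 0.04, with a 95% interval from 0.03 to 0.18, an unadjusted p of 0.00597 and an adjusted p of 0.219 (limma). The probe sets of Htr7 disagreed: 1387466_a_at was lower in the high-consumption line in 5 of 5 pairs, by -0.06 ± 0.03 on average (unadjusted p 0.029, adjusted p 0.443), at a level below the 40th percentile.

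The third Htr7 probe set (1371290_a_at), also dim, averaged 4.43 ± 0.12 in the arrays labelled P and 4.60 ± 0.14 in those labelled NP (SD), a difference of -0.17 ± 0.05 (unadjusted p 0.000465, adjusted p 0.841, limma). The standard error and p come from the spread pooled over all lines, and with the pair fitted alone the adjusted p was 0.9991 (limma). The difference of this probe set ran from -0.17 in P/NP to 0.03 in HAD1/LAD1, and the F test between pairs gave an unadjusted p of 0.0243 and an adjusted p of 0.246. With weights on the arrays it was called in P/NP (-0.19, adjusted p 0.0219), in a fit that called 577 probe sets of this pair where the unweighted fit called 0.

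The other lists of serotonin genes had few calls or none, to be read against the low shares of all probe sets given above. Of 8 other receptor genes, all with a probe set, 0 were called in any pair, in the average or between pairs. Of these, Htr4, a receptor coupled to Gs, came nearest: its difference was 0.41 ± 0.14 in HAD1/LAD1 (unadjusted p 0.00369, adjusted p 0.0978), 0.39 ± 0.13 in P/NP (adjusted p 0.841) and 0.29 ± 0.13 in AA/ANA (adjusted p 0.314). In HAD2/LAD2 it was -0.15 ± 0.14 and in sP/sNP 0.02 ± 0.14, and the average was 0.19 ± 0.06 (adjusted p 0.126). Of 13 genes of serotonin synthesis, storage and breakdown, 10 had a probe set and 0 were called. Slc22a3 differed by 0.47 ± 0.18 in HAD1/LAD1 (adjusted p 0.22), Ddc, the decarboxylase that completes serotonin and dopamine synthesis, by -0.69 ± 0.33 in the same pair (adjusted p 0.421), and Qdpr, which recycles the hydroxylase cofactor, by 0.18 ± 0.07 in AA/ANA (adjusted p 0.167). Of 10 transcription factors of serotonin neurons 6 had a probe set and 0 were called. Of 18 genes of receptor signalling and trafficking 1 was called, the scaffold gene Dlg4 in HAD1/LAD1 (0.35 ± 0.09, adjusted p 0.0142), where 2.91% of all probe sets were called.

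Of 7 markers of raphe and glutamate-releasing serotonin neurons 5 had a probe set under the listed symbol and 0 were called. The list includes Pet1, another name of Fev, whose probe set is described above. Galr1, a galanin receptor, differed by 0.32 ± 0.13 in HAD1/LAD1 (unadjusted p 0.0128, adjusted p 0.227), Trh by 0.24 ± 0.12 (unadjusted p 0.0427) and Satb1 by -0.18 ± 0.09 (unadjusted p 0.0439). Across arrays the 5 markers did not follow Slc6a4 alike. Mean r over the pairs was 0.467 for Trh, 0.443 for Galr1, 0.208 for Tacr3, -0.395 for Crhbp and -0.438 for Satb1. The mean signal of the 5, which mixes these, was 8.57 ± 0.06 in HAD1 and 8.50 ± 0.21 in LAD1 (SD), and 7.71 ± 0.62 in the arrays labelled P and 7.51 ± 0.77 in those labelled NP. As with Slc6a4, HAD1 animals were closer to each other than LAD1 animals, a difference in spread that was not tested. It was not particular to serotonin genes. The SD of the list mean was 0.18 in HAD1 and 0.26 in LAD1 for dopamine neuron markers. It was 0.19 and 0.27 for GABA neuron markers, and 0.07 and 0.16 for oligodendrocyte markers. Glutamate neuron markers (0.093 and 0.089) and the 6 member receptors (0.080 and 0.063) went the other way. Dopamine neuron markers (10 of 12 with a probe set), choroid plexus (8 of 10), GABA neuron (8 of 8), glutamate neuron (4 of 4), astrocyte (5 of 5) and interpeduncular and habenular markers (5 of 5) had 0 calls in every pair. Oligodendrocyte markers (5 of 6) had 1 call, Mobp in HAD1/LAD1 (0.30 ± 0.08, adjusted p 0.0112), and microglia markers (5 of 5) had 1 in HAD1/LAD1, Cx3cr1 (-0.33 ± 0.07, adjusted p 0.00137), and 1 in HAD2/LAD2, P2ry12 (0.54 ± 0.16, adjusted p 0.0361). Of all probe sets 2.91% were called in HAD1/LAD1 and 3.73% in HAD2/LAD2.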

How the data were processed

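Ventral tegmental area RNA of 91 rats was amplified in 2 cycles from 25 ng of total RNA and put on Affymetrix arrays, per the labels' protocols. The authors deposited a log2 signal for each of 31099 probe sets, and the submitters' processing notes name RMA as the method. Which arrays it normalized together, and its version, were not stated in the labels. The platform annotation gave 1 gene symbol to 20826 probe sets, several to 436 and none to 9780, and 57 controls were left out. By gene ID 20758 matched a GRCr8 gene table, which changed 0 symbols.

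Lines came from the labels. All arrays entered 1 fit of 10 line means (limma 3.58.1 in R 4.3.3, lmFit and eBayes, 81 residual degrees of freedom), with 2-sided tests of high minus low in each pair, their average, and an F test with 4 numerator degrees of freedom. No filter on dim probe sets was used. The script was tested on simulated data. Array numbers limit the precision, and p-values measure the spread between the sampled animals.

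Correlations used deviations from line means, with 100000 permutations within lines, 2-sided. As Tph2 had no probe set, Slc6a4 was set against the other members. The members and lists were chosen with earlier results of these data known. Every member is named, with up to 4 called genes of each other list, and Th. The 8 genes with the highest mean r over the pairs were named as most like Slc6a4 or Htr2c, from brightest probe sets at or above the 40th percentile, and genes that came near the threshold were named after their values were seen. Figures used Python 3.11.15 and matplotlib 3.10.9. Alternatives are given in the closing section.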

Additional observations from a re-analysis of the deposited data

Results flagged for a closer look

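Of 140 sets of arrays of 1 line at 1 member probe set, 8 held an array far from the others by Dixon's test, where chance gives about 1 in 20. Each has a single animal beyond its line. Fev was 6.374 on the array labelled P 4, and the nearest other array labelled P had 5.841. Htr1a was 4.963 on HAD1 27 (nearest 5.208) and 4.902 on LAD1 35 (nearest 5.21), low in both lines of one pair. Htr1b was 5.76 on the array labelled sP 2 (nearest 5.609). Htr2a at 1387752_s_at was 5.81 on the array labelled P 8 (nearest 5.6) and 5.581 on the array labelled ANA 12 (nearest 5.296). Htr2a at 1369894_at was 4.723 on the array labelled sP 5 (nearest 4.516). Htr7 at 1387466_a_at was 5.741 on HAD1 25 (nearest 5.552). Fev on the array labelled P 4 stood beside the highest Slc6a4 signal of its line, 9.57.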

How the results depend on the processing

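The number of member probe sets called stayed at 0 under 98 of 99 alternative counts, which covered filters at the 40th percentile (7.02) and 60th percentile (8.58), 1 probe set per gene, all non-control probe sets, quantile normalization, centring, separate fits, a robust prior, array weights, sets of arrays as terms, arrays left out and a 1.5-fold threshold. The exception was 1 in P/NP with array weights, Htr7 1371290_a_at, where all calls of that pair were 577 against 0 without weights. With array weights all calls were also 1030 in HAD1/LAD1, 1185 in HAD2/LAD2 and 1069 in AA/ANA. With all non-control probe sets they were 1070, 1319 and 913, and at 1.5-fold 133, 168 and 86. Some of the 99 counts could not move: a 1.5-fold threshold on a fit with 0 calls of members can only give 0. In sP/sNP every setting called 0 of all probe sets, and in P/NP every setting but array weights did. A count of 0 members adds little there. Of 1048 alternative values of single probe sets 38 changed sign, and none of these was called. The filters, 1 probe set per gene, all non-control probe sets, separate fits, the robust prior and the 1.5-fold threshold cannot change a fitted difference. Their values count in the 1048 but could not change sign. Leaving out each of 91 arrays in turn gave 0 calls of members (lowest 0, highest 0 in each pair, lowest adjusted p 0.129), while all calls ranged from 504 to 795 in HAD1/LAD1 and from 378 to 825 in AA/ANA. Without the 2 arrays farthest from the median, the relation of Slc6a4 and Fev lost its call in P/NP (r 0.682, permutation adjusted p 0.118) and AA/ANA (r 0.669, permutation adjusted p 0.0663). The cause was not tested. With the replicate block, 0 members were called in P/NP (Slc6a4 -0.49) and 0 in sP/sNP (Slc6a4 0.11). Arrays of the same number correlated from -0.663 to 0.648 in P/NP and from -0.277 to 0.198 in sP/sNP, so the numbers were not taken to pair animals. Leaving out arrays apart from their labels or low in Th, and testing relations without them or after quantile normalization and centring, were chosen after seeing the data. Dim probe sets limit what could be seen: 8 of 14 stayed below the 40th percentile in every line.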
